A study of Mus musculus with 12 samples.

Results

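Voltage-gated sodium and calcium channel genes were followed in total and ribosome-bound RNA of the mouse ventromedial nucleus of the hypothalamus (VMN). The members are the protein-coding genes whose symbol is Scn, a number and a or b, or starts with Cacn. They are 40 genes of the 46517 identifiers in the count files. Of these, 20 code for pore-forming subunits, 10 of sodium channels (the Scn genes ending in a) and 10 of calcium channels (Cacna1). The other 20 code for auxiliary subunits: 4 sodium channel β genes (Scn genes ending in b), 4 α2δ genes (Cacna2d), 4 cytoplasmic β genes (Cacnb) and 8 γ genes (Cacng).

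A voltage-gated sodium channel opens when the membrane is depolarized and carries the upstroke of the action potential. Calcium channels then let calcium in: Cav2 channels (Cacna1a, Cacna1b, Cacna1e) at nerve terminals and dendrites, L-type channels (Cacna1c, Cacna1d, Cacna1f, Cacna1s) with slow inactivation, and T-type channels (Cacna1g, Cacna1h, Cacna1i) at voltages near rest. Auxiliary subunits do not form the pore but set how many channels reach the membrane and how they gate. Several γ genes expressed in brain are better known as TARPs, partners of AMPA receptors. In the VMN, whose SF1 neurons (named after the transcription factor gene Nr5a1) take part in glucose and energy balance, these channels underlie firing and transmitter release.

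Tissue was pooled from 6 animals at a time, 6 pools in all, and each pool was sequenced as 2 libraries, 12 in total. The input is RNA of the whole dissected VMN. The output is RNA recovered by translating ribosome affinity purification (TRAP), in which GFP-tagged ribosomes of SF1 cells are pulled down together with the messages they carry. Every animal was on regular chow, was fasted overnight and received an adeno-associated virus (AAV) for a GFP-L10 ribosomal fusion. The 3 DN pools also received an AAV for a dominant-negative mutant of AMPK, the kinase that senses a fall in cellular energy, and by their characteristics the 3 CTRL pools did not. The treatment text is the same for all samples and names the dominant-negative virus for CTRL as well; the characteristics were followed. Whether CTRL animals received another second virus is not given in the sources used here, so what the mutant kinase does and what a second injection does cannot be told apart. How the tagged ribosome was limited to SF1 cells, and the strain, age and sex of the animals, are also not given there. In bulk RNA, fewer cells of a type and less RNA per cell cannot be told apart.

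Total gene counts ranged from 34.6 to 55.5 M a library. Genes of the mitochondrial chromosome took 74.9 to 79.7% of them in inputs and 17.9 to 26.1% in outputs, which leaves nuclear genes 8.5 to 11.3 M counts an input and 26.2 to 32.1 M an output. Nr5a1 averaged 2.07 ± 0.846 (SD, n = 3) normalized CPM (counts scaled to a common library size) in CTRL inputs and 22.7 ± 12.2 in CTRL outputs. In DN it averaged 6.03 ± 1.15 in inputs and 22.4 ± 10.4 in outputs. Its outputs were 10.9-fold higher in CTRL (edgeR adjusted p = 0.00751). They were 3.69-fold higher in DN, where edgeR did not call it (adjusted p = 0.0946). DESeq2 called it in both, at adjusted p = 3.94e-09 and 0.00288. The difference between these folds (log2 -1.56) did not pass the edgeR test (adjusted p = 0.799). Summed over 7 pan-neuronal markers, levels were 3644 to 4293 normalized CPM in CTRL inputs and 6192 to 6606 in CTRL outputs, and in DN 4515 to 4814 and 7011 to 7815. Over 8 astrocyte markers the sum was 3066 to 3737 in CTRL inputs against 1639 to 1892 in CTRL outputs, and 3144 to 3466 against 1123 to 1274 in DN. The sum of 8 VMN markers was 497 to 571 in CTRL inputs and 1398 to 1614 in CTRL outputs, and 518 to 708 and 1703 to 2327 in DN, with none of the 8 genes at 0. VMN and neuronal sums were thus higher and astrocyte sums lower in every output than in any input of the same condition. Over the 7 pan-neuronal markers, the median log2 fold change (outputs against inputs) was only 0.39 in CTRL and 0.10 in DN. Values were positive for 7 in CTRL and 6 in DN. At an adjusted p under 0.05, edgeR called 3 of them higher in CTRL and 2 in DN, against 1.78% and 1.84% of all genes tested. For the 8 VMN markers the medians were 1.61 and 1.60. The part of these markers in the member results was not tested.

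To show what lies at the start of members the results turn on, the 200 bases before an annotated start are given for Cacna2d1 and Cacng5. Cacna2d1 was called in both output-input comparisons, and Cacng5 was called between DN and CTRL by DESeq2 alone. The stretches are from RefSeq promoter windows on GRCm38.p6. They lie at chr5:15934491-15934690 on the plus strand and at chr11:107915056-107915255 on the minus strand, and neither holds an annotated exon base. Capitals mark the GC box GGGCGG or its reverse complement CCGCCC, with overlapping matches counted.
Cacna2d1: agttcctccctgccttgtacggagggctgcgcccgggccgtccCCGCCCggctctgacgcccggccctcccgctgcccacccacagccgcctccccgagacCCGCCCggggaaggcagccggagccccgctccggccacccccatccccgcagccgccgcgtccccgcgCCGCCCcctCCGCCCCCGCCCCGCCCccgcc
Cacng5: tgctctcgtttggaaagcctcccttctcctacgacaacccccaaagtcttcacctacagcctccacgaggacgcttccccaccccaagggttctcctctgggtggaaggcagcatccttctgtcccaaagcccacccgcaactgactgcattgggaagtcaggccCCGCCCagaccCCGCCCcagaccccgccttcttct
The Cacna2d1 stretch is 83.0% G or C, with 27 CpG steps and 6 GC boxes. The Cacng5 stretch is 61.5% G or C, with 8 CpG steps and 2 GC boxes. Another annotated start of Cacng5 has its 200 bases at chr11:107911363-107911562, with 57.0% G or C, 0 CpG steps and 0 GC boxes. RefSeq windows were found for 30 of the 40 members, 41 windows in all. Over the whole 250 bases that a RefSeq window holds before the start, and on either strand, the GC box was in 15 of the 41 member windows (36.6%) and in 32.7% of all 32851 windows. The core letters that SF1 is known to bind, AAGGTCA or TGACCTT, were in 2 of the 41 member windows (4.88%, Cacna1f and Scn8a) and in 4.08% of all windows. A match is only a description of the letters.

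Among the pore-forming genes, 3 neuronal sodium channels and 2 Cav2 calcium channels led in the outputs of both conditions. On the scale of normalized CPM per kilobase of exon, the only scale on which genes are compared here, Scn2a was highest of the sodium channel α genes in CTRL outputs (18.9 ± 2.16, SD, n = 3), followed by Scn8a (12.4 ± 1.26) and Scn3a (11.1 ± 2.14). Scn8a and Scn3a lay within each other's spread. In inputs Scn1a (9.19 ± 1.52 in CTRL, 9.87 ± 2.20 in DN) stood above Scn3a (7.64 ± 0.565 and 9.71 ± 2.64), within its spread in DN. Cacna1b (13.3 ± 1.74) and Cacna1e (11.7 ± 2.54) led the calcium channel α1 genes and were within each other's spread, while the next, Cacna1c, stood at 2.54 ± 0.143. All 3 Cav2 genes together took 81.9 to 85.8% of the summed α1 level in the 4 group means. L-type genes took 9.3 to 11.5% and T-type genes 4.9 to 6.6%. The lengths are those of all annotated exons merged, 25228 bases for Cacna1e, 21191 for Cacna1c and 9942 for Cacna1b. A single transcript can be shorter, so the order of genes and these shares depend on the lengths used.

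Scn2a, the channel of axon initial segments early in life and of dendrites later, had 189.8, 186 and 156 normalized CPM in the CTRL inputs and 262, 249.8 and 209.6 in the CTRL outputs. Its DN inputs held 190.1, 199 and 199 and its DN outputs 299, 259.9 and 250.4. Outputs were above inputs in both conditions without overlap. Scn8a, the main channel of mature nodes and initial segments, had 150.2, 155 and 170.0 normalized CPM in CTRL inputs, 175, 198 and 214 in CTRL outputs, 163, 138 and 204 in DN inputs and 255, 282 and 284 in DN outputs. The DN outputs of Scn8a were thus above all other groups.

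Cacna1b, the pore of N-type channels, stood at 122, 123 and 120.2 normalized CPM in CTRL inputs and 149, 115 and 132 in CTRL outputs. In DN its inputs held 105, 158 and 149.9 and its outputs 203, 174 and 143. These groups overlap between fractions in both conditions. Cacna1e, the pore of R-type channels, had 215, 197 and 162 normalized CPM in CTRL inputs and 296, 359 and 230.5 in CTRL outputs. Its DN inputs held 229, 181 and 194 and its DN outputs 346, 295 and 303. All of its outputs were above all of its inputs.

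5 pore-forming genes stayed under a mean of 5 normalized CPM in every group: Scn4a and Cacna1s, channels of skeletal muscle, Scn10a and Scn11a, channels of sensory neurons, and Cacna1f, a channel of the retina. Scn4a and Cacna1f had 0 counts in all 12 libraries, which allows up to 0.0412 to 0.134 normalized CPM a library (3 counts, counting error only). 5 auxiliary genes also stayed under that mean: Scn4b, Cacng1, Cacng6, Cacng8 and Cacna2d4. The sum of 5 skeletal muscle markers was at most 2.89 normalized CPM in any library. Thus 15 pore-forming and 15 auxiliary genes reached a mean of 5.

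**Figure D1:**
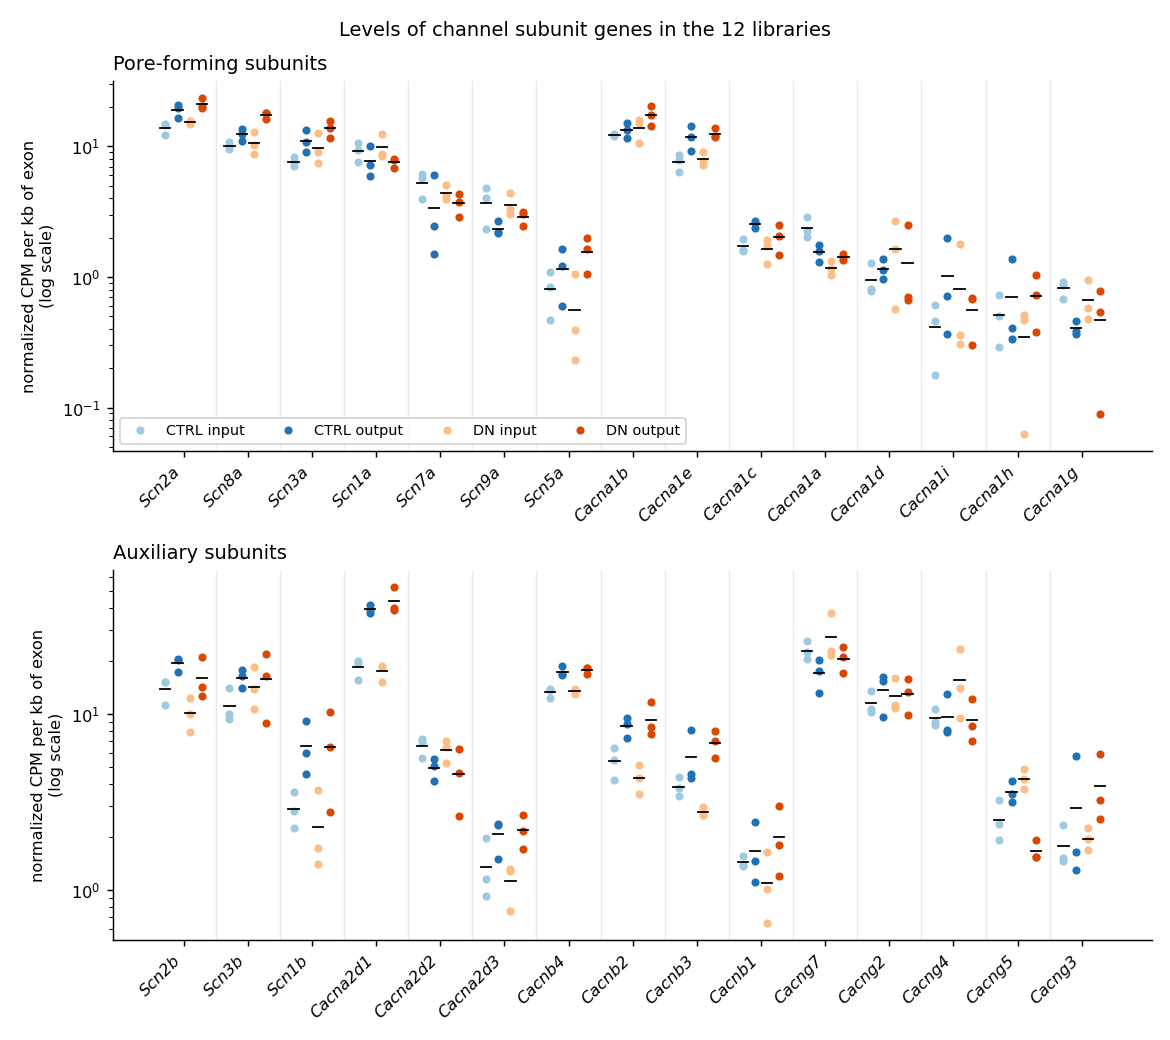
Levels of the 15 pore-forming (upper panel) and 15 auxiliary genes (lower panel) that reached a mean of 5 normalized CPM, in normalized CPM per kilobase of exon on a log axis. Each point is 1 of the 12 libraries, colours give the 4 groups of 3 libraries and bars the group means; the output means of Cacna2d1, 39.2 and 43.7, lie above the means of every other member.

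Among the auxiliary genes, Cacna2d1 was the most abundant member of all in both outputs. It codes for α2δ-1, the subunit that gabapentin binds and that helps channels reach the terminal. Per kilobase it averaged 18.4 ± 2.41 (SD, n = 3) in CTRL inputs, 39.2 ± 2.28 in CTRL outputs, 17.4 ± 1.98 in DN inputs and 43.7 ± 7.66 in DN outputs. In inputs the highest member was instead Cacng7, a TARP, with 22.9 ± 2.85 in CTRL and 27.4 ± 8.87 in DN, and its output means were 17.0 ± 3.64 and 20.6 ± 3.44.

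The 2 leading sodium channel β genes were Scn2b and Scn3b, single-pass partners of the α subunits. Scn2b had 70.3, 71.0 and 52.6 normalized CPM in CTRL inputs and 80.9, 94.6 and 95.8 in CTRL outputs, with 46.7, 57.2 and 36.9 in DN inputs and 98.5, 59.0 and 65.8 in DN outputs. Its outputs were above its inputs without overlap in both conditions, by the least in DN pool 2. Scn3b had 77.1, 50.9 and 54.4 in CTRL inputs, 89.9, 97.1 and 76.4 in CTRL outputs, 57.9, 101 and 75.2 in DN inputs and 48.7, 119 and 89.3 in DN outputs. Its groups overlap in both conditions.

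Cacnb4 and Cacnb2, cytoplasmic β subunits that bind the α1 linker, led their family. Cacnb4 had 124, 122 and 110.2 normalized CPM in CTRL inputs, 168, 149.6 and 150.0 in CTRL outputs, 121, 117 and 125 in DN inputs and 151, 163 and 164 in DN outputs. Its outputs were above its inputs in every pool. An opposite-strand transcript, A430018G15Rik, shares 16% of the exon length of Cacnb4, and since the strand setting of the counting is not given in the sources used here, reads of the 2 genes cannot be told apart there. Scn1a, Scn2a, Scn3a and Scn9a are similar in sequence, and how reads that match several of them were counted is not given either.

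Of the γ genes, Cacng7 and Cacng2 were highest in CTRL outputs. Cacng7 had 49.7, 54.5 and 63.4 normalized CPM in CTRL inputs, 31.9, 49.5 and 42.8 in CTRL outputs, 55.9, 91.7 and 52.8 in DN inputs and 41.4, 51.1 and 58.1 in DN outputs. Cacng2, which codes for stargazin, had 56.5, 74.6 and 58.4 in CTRL inputs, 84.8, 88.6 and 53.0 in CTRL outputs, 59.2, 61.9 and 87.8 in DN inputs and 54.2, 87.4 and 72.9 in DN outputs. Cacng7 was lower in CTRL outputs than inputs without overlap, and the other γ contrasts of these 2 genes overlap.

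The make-up of each family, as shares of its summed level per kilobase, differed most between fractions for α2δ. Cacna2d1 took 69.5% ± 6.0 (SD, n = 3) of α2δ in CTRL inputs and 84.7% ± 1.8 in CTRL outputs, and 70.1% ± 4.8 and 86.7% ± 2.3 in DN. Cacna2d2, known from Purkinje cells, took a smaller share in outputs, with 25.1% ± 4.1 and 10.6% ± 1.8 in CTRL and 25.2% ± 4.4 and 8.8% ± 2.4 in DN. The sums of all α2δ genes were 26.4 ± 1.39 in CTRL inputs and 46.2 ± 2.21 in CTRL outputs, and 24.8 ± 1.3 and 50.5 ± 8.98 in DN. Among sodium channel α genes, Scn1a, best known from fast-spiking inhibitory neurons, took 18.1% ± 1.2 in CTRL inputs and 13.4% ± 1.9 in CTRL outputs, and 18.2% ± 4.3 and 11.1% ± 1.0 in DN. The sums over 5 GABA neuron markers were also lower in outputs, 244 to 315 normalized CPM against 633 to 819 in CTRL and 203 to 221 against 685 to 803 in DN, and their part in the Scn1a share was not tested. Shares are a description and were not tested.

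**Figure D2:**
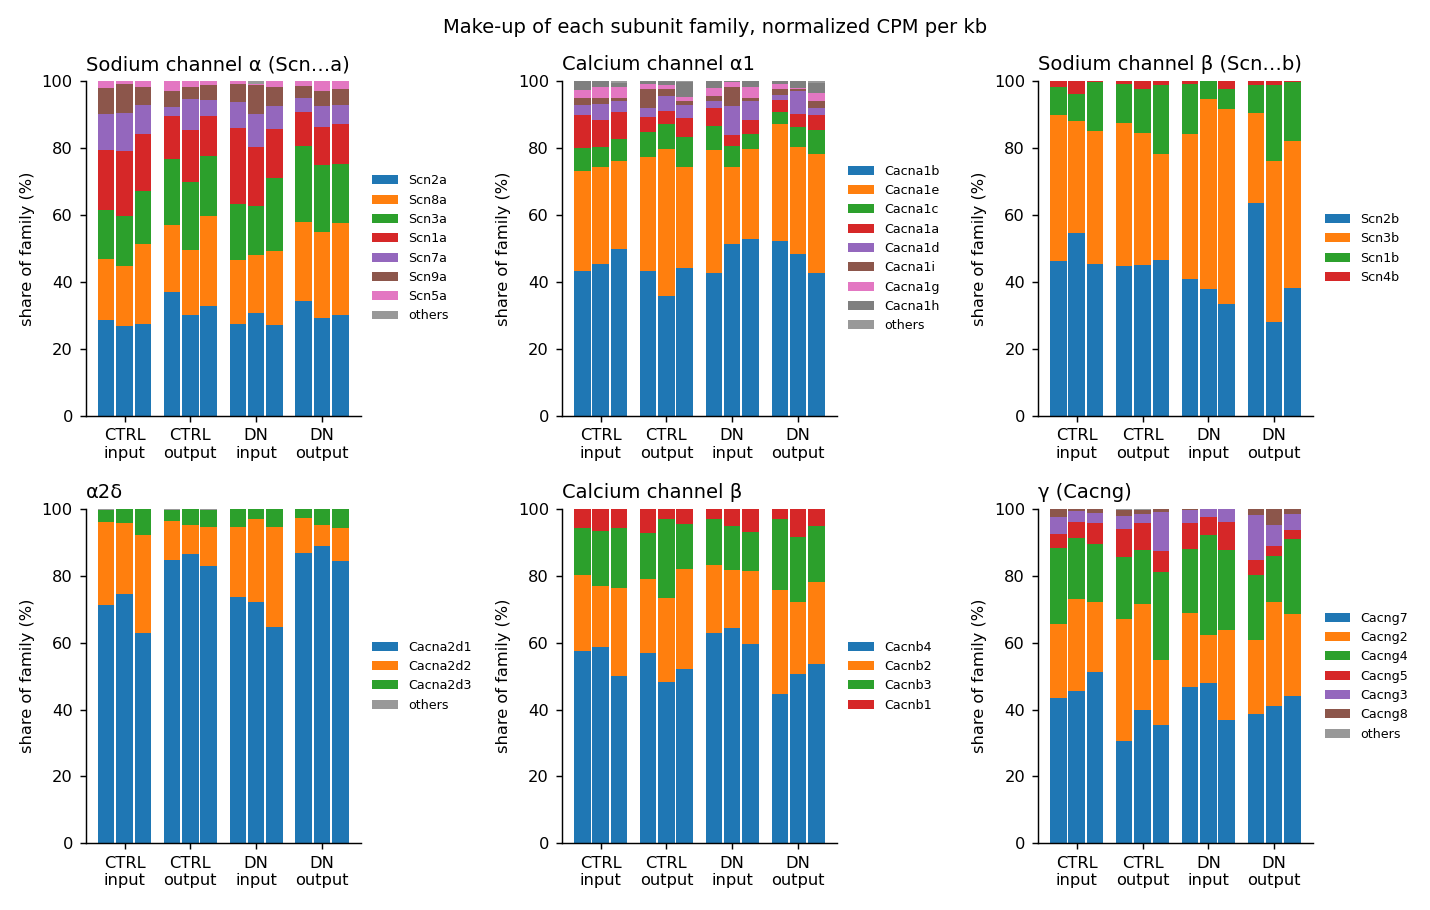
Share of each gene in the summed level of its family (normalized CPM per kilobase of exon, percent), 1 bar a library and 3 bars a group, in 6 panels for the 6 families. In the α2δ panel the Cacna2d1 share is higher in all 6 output libraries than in all 6 input libraries.

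The output-input comparison in CTRL asks which members are richer in RNA of the ribosome pull-down than in total RNA of the dissected VMN. That total RNA includes the SF1 cells. The CTRL outputs still held astrocyte markers (sum 1639 to 1892 normalized CPM) and GABA neuron markers (244 to 315). RNA of other cells may thus be part of an output, and how much was not tested. Differences between cells and differences in ribosome binding cannot be told apart in this comparison. Cacna2d1 rose, and no pore-forming gene was called. Its levels were 243, 248 and 194 normalized CPM in inputs and 461, 517 and 481 in outputs, so all outputs were above all inputs. The fitted log2 fold change was 1.08 ± 0.14 (SE), a 2.12-fold higher level, with adjusted p = 0.0025 (edgeR quasi-likelihood, Benjamini-Hochberg over 13456 genes). The gene (ENSMUSG00000040118) lies at chr5:15934691-16374511 on the plus strand of GRCm38. The call ends without CTRL pool 1 (log2 fold change 1.16, adjusted p = 0.0551) and without CTRL pool 2 (1.11, 0.0983), and holds without pool 3 (0.99, 0.0224).

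That is 1 of 33 members tested at an adjusted p under 0.05, and 3.2% of all genes tested were called (1.78% higher). With the pool as a replicate block it was again 1 (3.92% of all genes tested), by limma-voom 1 (3.14%), with no filter 2 (4.16%) and by DESeq2 on the genes that edgeR tested 3 (8.99%). 15 pore-forming and 18 auxiliary genes passed the filter on low counts, which a gene can pass through its higher group alone. The fitted log2 fold change was positive for 25 of the 33 members, with a median of 0.43, against 51.0% and a median of 0.02 over all genes tested. For pore-forming genes it was positive for 10 of 15 with a median of 0.29, and for auxiliary genes for 15 of 18 with a median of 0.49. Groups did not overlap, with outputs higher, for 10 members (30.3%, against 12% of all genes tested) and with outputs lower for 4 (12.1%, against 11.2%). These 4 were Cacna1a, Cacna1g, Cacng7 and Cacna2d2. At an unadjusted p under 0.05 stood 11 members (33.3%, against 16.3% of all genes tested), 5 pore-forming and 6 auxiliary.

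Further from the threshold in CTRL, Cacna1e had a log2 fold change of 0.62 ± 0.18 (SE) with edgeR adjusted p = 0.105, and Cacnb2 0.65 ± 0.21 with adjusted p = 0.129. DESeq2 called both, at adjusted p = 0.0418 and 0.0458, and also Cacna1c (0.55, adjusted p = 0.0445). By that tool 4 members were called in CTRL, all higher, and 10.9% of all genes it tested were (4.93% higher). Scn2a (0.43 ± 0.15, edgeR adjusted p = 0.183), Scn3a (0.52 ± 0.18, 0.165) and Cacnb4 (0.38 ± 0.15, 0.225) were not called by either tool.

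In DN pools the same comparison called Cacna2d1 again and also Cacnb2, both auxiliary and both higher in outputs. Cacna2d1 had 228, 233 and 188 normalized CPM in inputs and 653, 482 and 494 in outputs, with DN output 1 well above the others. Its log2 fold change was 1.31 ± 0.16 (SE), or 2.49-fold, with edgeR adjusted p = 0.00079, and the call held without each DN pool (adjusted p 0.012 to 0.0282). Cacnb2 (ENSMUSG00000057914, chr2:14603088-14987908, plus strand) had 57.4, 46.4 and 67.8 in DN inputs and 154, 101 and 111 in DN outputs, again without overlap. Its log2 fold change was 1.08 ± 0.25, or 2.12-fold, with adjusted p = 0.0337. That call rests on every pool: it ends without DN pool 1 (0.89, adjusted p = 0.221), 2 (1.08, 0.127) or 3 (1.28, 0.128). In CTRL, Cacnb2 had 72.7, 56.1 and 85.2 in inputs and 96.8, 116 and 126 in outputs.

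These are 2 of 32 members tested, and 3.38% of all genes tested were called (1.84% higher). With the pool as a replicate block there were again 2 (3.04% of all genes tested), and an unadjusted p under 0.05 was found for 10 (31.2%, against 15.7%). Positive log2 fold changes were found for 22 of the 32, with a median of 0.42, against 50.2% and a median of 0.00 over all genes tested. The median was 0.29 for the 15 pore-forming genes, 9 of them positive, and 0.65 for the 17 auxiliary genes, 13 of them positive. Outputs were higher without overlap for 13 members (40.6%, against 11.6% of all genes tested) and lower for 2, Scn1a and Cacng5 (6.25%, against 10.9%). The comparisons in CTRL and DN share no library.

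Close to the threshold in DN were Cacna1e (log2 fold change 0.63 ± 0.16, SE, edgeR adjusted p = 0.0525) and Scn8a (0.69 ± 0.18, adjusted p = 0.0611). limma-voom called them at adjusted p = 0.0361 and 0.040, and DESeq2 at 0.0132 and 0.0213. Cacnb3, another cytoplasmic β gene, had 11.9, 10.6 and 10.7 normalized CPM in DN inputs and 32.0, 28.0 and 22.5 in DN outputs, which is without overlap. Its log2 fold change was 1.3 ± 0.42 with edgeR adjusted p = 0.126, and DESeq2 gave adjusted p = 0.000362. DESeq2 called 7 members in DN, 6 higher and Cacng5 lower, where it called 10.9% of all genes it tested (4.24% higher and 6.64% lower). On the genes that edgeR tested it called 6 (8.91%). limma-voom called 4 (3.04%), edgeR without the mitochondrial chromosome genes 3 (3.19%), Cacna1e being the one added at adjusted p = 0.0491, edgeR with no filter 4 (4.67%) and edgeR in 1 fit of all 12 libraries 5 (4.48%).

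**Figure D3:**
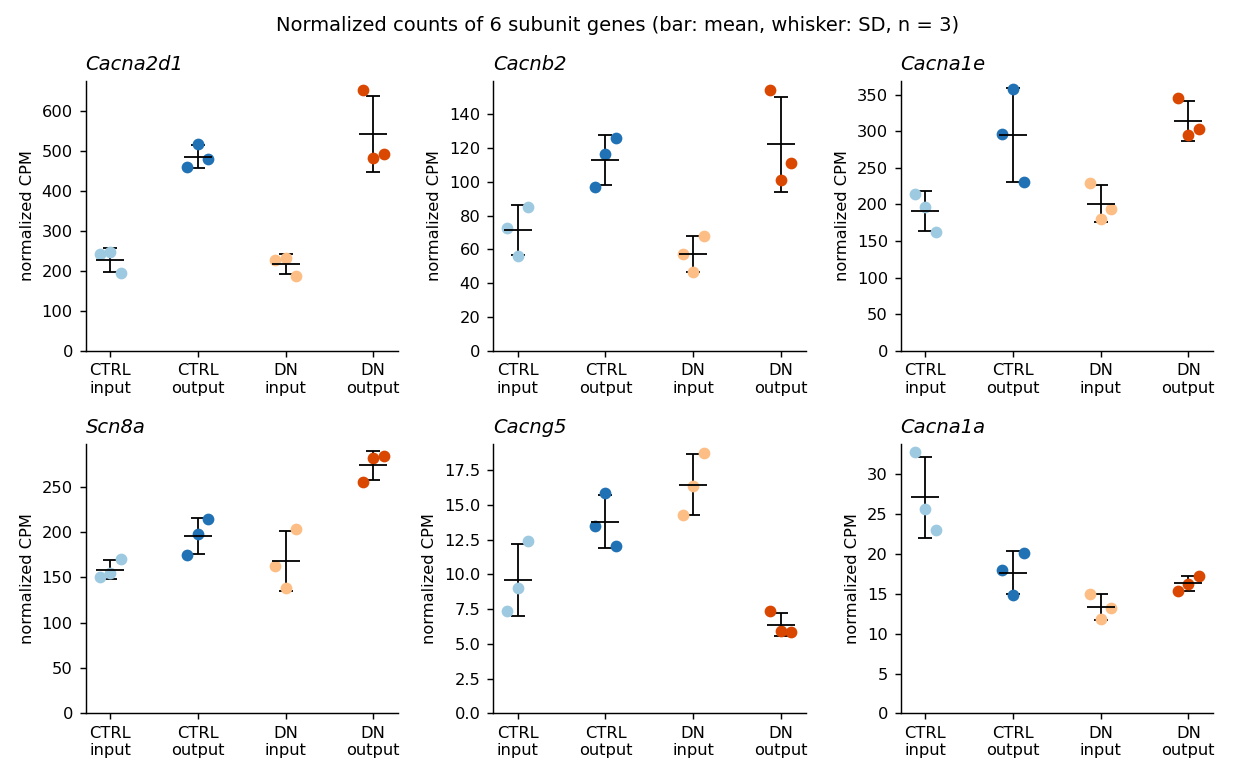
Normalized CPM (linear axis from 0) of Cacna2d1, Cacnb2, Cacna1e, Scn8a, Cacng5 and Cacna1a in the 4 groups; points are libraries, horizontal bars group means and whiskers 1 SD of 3 libraries. The outputs of Cacna2d1 sit at 461 or more and its inputs at 248 or less, and the DN outputs of Cacng5 at 5.89 to 7.37 are at the low end of that panel, beside CTRL input 1 at 7.34.

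Within pools, the ratio of output to input, log2 of (output + 1) over (input + 1) normalized CPM, was read for the 30 members that reached a mean of 5. It was positive in all 6 pools for 8: Scn2a, Scn8a and Cacna1e among pore-forming genes, and Scn2b, Cacnb2, Cacnb4, Cacna2d1 and Cacna2d3 among auxiliary genes. It was negative in all 6 for 4 pore-forming genes, Scn1a, Scn7a, Scn9a and Cacna1g, and for no auxiliary gene. Of the 9129 genes at that level, 12% were positive and 8.93% negative in all 6 pools.

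Cacna2d1 had ratios of 0.92, 1.06 and 1.31 in the CTRL pools and 1.51, 1.05 and 1.39 in the DN pools. Those of Cacnb2 were 0.41, 1.04 and 0.56 in CTRL and 1.41, 1.11 and 0.71 in DN. Those of Cacnb4 were 0.44, 0.30 and 0.44 in CTRL and 0.31, 0.48 and 0.39 in DN, close to each other in both conditions. These 3 auxiliary genes were higher in the output of every pool.

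Scn1a had ratios of -0.38, -0.07 and -0.34 in CTRL and -0.85, -0.15 and -0.11 in DN. Scn7a, which codes for the sodium sensor Nax and is known from glia, had -1.83, -0.03 and -0.64 in CTRL and -0.50, -0.23 and -0.07 in DN. Cacna1g, a T-type channel gene, had -0.47, -1.13 and -0.99 in CTRL and -0.10, -1.62 and -0.25 in DN. None of the 4 genes with negative ratios throughout passed the edgeR test in CTRL or DN, their smallest adjusted p being 0.292 for Scn9a in CTRL. Astrocyte and GABA neuron markers were lower in the same outputs, and their part in these ratios was not tested.

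**Figure D4:**
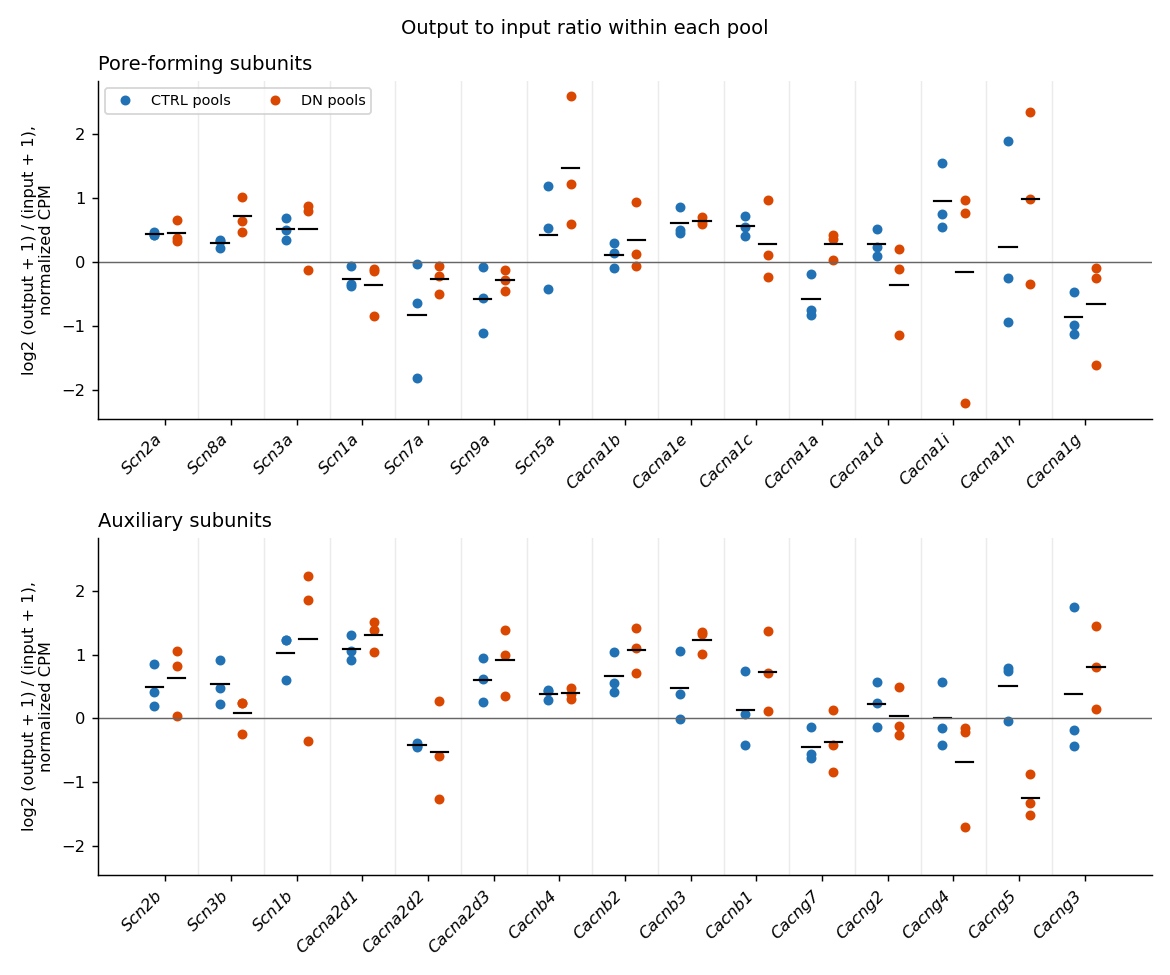
Output to input ratio within each of the 3 CTRL and 3 DN pools, as log2 of (output + 1) over (input + 1) normalized CPM, for 15 pore-forming (upper) and 15 auxiliary genes (lower); points are pools and bars the means of 3. Cacna2d1 lies above 0 in all 6 pools, Cacna1a below 0 in the CTRL pools and above 0 in the DN pools, and Cacng5 below 0 in the DN pools.

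Genes that work with these channels were read from a list of 42, of which 41 are in the files. In CTRL, 6 of 34 tested were higher in outputs and none lower (edgeR adjusted p under 0.05), against 1.78% and 1.42% of all genes tested. DESeq2 called 9 higher and 2 lower, against 4.93% and 5.93%. Among them were Fgf12, an intracellular partner of sodium channels (log2 fold change 1.10), Nedd4l, a ubiquitin ligase that removes sodium channels (1.02), Camk2a (0.91), a calcium-activated kinase, and the calcineurin catalytic genes Ppp3ca (0.97) and Ppp3cb (0.81). In DN, 7 of 34 were higher, these 5 among them, and 1 was lower, Ank2 (-0.67, adjusted p = 0.0493), an ankyrin that anchors membrane proteins. The shares of all genes tested in DN were 1.84% and 1.54%. DESeq2 called 10 higher and 3 lower there, against 4.24% and 6.64%. Fgf12 held 83.8, 92.7 and 87.8 normalized CPM in CTRL inputs against 200.4, 189 and 179.9 in CTRL outputs. The median log2 fold change over the list was 0.13 in CTRL and 0.17 in DN. Between DN and CTRL no listed gene was called, in outputs (35 tested), inputs (33) or the interaction (37), by edgeR or by DESeq2; at an unadjusted p under 0.05 stood 3 (8.57%), 2 (6.06%) and 1 (2.7%), against 5.41%, 4.46% and 6.22% of all genes tested.

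The next comparison sets the ribosome pull-down RNA of DN pools against that of CTRL pools. The AMPK subunit genes Prkaa1 and Prkaa2 were read as a check of the construct. Prkaa1 averaged 34.6 ± 3.79 (SD, n = 3) normalized CPM in CTRL outputs and 26.9 ± 5.01 in DN outputs. Its log2 fold change was -0.37 (edgeR adjusted p = 0.957). Prkaa2 averaged 85.6 ± 12.5 and 91.4 ± 19.4, with 0.09 (adjusted p = 0.989). Neither was called, so a rise of these genes with the construct is not shown. No member was called between DN and CTRL outputs: edgeR called 0 of 32, and 0.0% of all genes tested were called. At an unadjusted p under 0.05 stood 2 members (6.25%, against 5.41% of all genes tested), Scn8a and Cacng5. limma-voom called 0 members (0.0075% of all genes) and DESeq2 called 1, Cacng5, where it called 1.21% of all genes it tested. On the genes that edgeR tested it called no member and 0.462% of genes.

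Scn8a was higher in DN outputs (255, 282 and 284 normalized CPM) than in CTRL outputs (175, 198 and 214), without overlap. Its log2 fold change was 0.48 ± 0.15 (SE), with unadjusted p = 0.0084 and edgeR adjusted p = 0.91. Cacna1b, with 203, 174 and 143 in DN outputs and 149, 115 and 132 in CTRL outputs, overlapped and had 0.39 ± 0.19 (adjusted p = 0.916). Scn3a, a sodium channel abundant before birth, had 196, 173 and 144 in DN outputs and 135, 166 and 112 in CTRL outputs, again overlapping, with 0.31 ± 0.20 (adjusted p = 0.949). Of 7 sodium channel α genes tested, 6 had positive values, with a median of 0.30, and 50.8% of all genes tested were positive. All 4 sodium channel β genes had negative values, the largest for Scn4b at -0.75 ± 1.04. Scn4b is a low gene, with means of 3.06 normalized CPM in CTRL outputs and 1.83 in DN outputs. All 4 Cacnb genes had positive values, with a median of 0.18. None of these values passed the test. In the same outputs the sum of 8 VMN markers was 1703 to 2327 in DN and 1398 to 1614 in CTRL (7 of 8 positive, median log2 fold change 0.33), and that of 7 pan-neuronal markers 7011 to 7815 and 6192 to 6606 (4 of 7 positive, median 0.13). Their part in the sodium channel values was not tested.

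Cacng5, a TARP gene, had 13.5, 15.9 and 12.1 normalized CPM in CTRL outputs and 7.37, 5.91 and 5.89 in DN outputs. All DN outputs were below all CTRL outputs. The log2 fold change was -1.11 ± 0.50 (SE), with unadjusted p = 0.045 and edgeR adjusted p = 0.911. DESeq2 gave adjusted p = 0.0385 over all genes and 0.434 over the genes that edgeR tested. In the same libraries the sum of 8 astrocyte markers was 1123 to 1274 in DN outputs and 1639 to 1892 in CTRL outputs, and its part in the Cacng5 values was not tested. Single astrocyte markers did not share that direction: of 7 tested, 3 had positive and 4 negative log2 fold changes, with a median of -0.03. edgeR called none of the 7, with 1 at an unadjusted p under 0.05, and DESeq2 called 1 lower.

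Over the 32 members the median log2 fold change in outputs was 0.10, against 0.01 over all genes tested, with 0.15 for pore-forming and 0.03 for auxiliary genes. DN outputs were above CTRL outputs without overlap for 2 members (6.25%, against 5.17% of all genes tested), Scn8a and Cacng8, and below for 1 (3.12%, against 5.87%), Cacng5. The 95% interval lay inside a 2-fold change either way for 19 members, 9 of 15 pore-forming and 10 of 17 auxiliary. For the 6 members highest per kilobase in CTRL outputs, the interval on the log2 scale was -0.17 to 0.48 for Cacna2d1, -0.80 to 0.23 for Scn2b, -0.18 to 0.51 for Scn2a, -0.32 to 0.38 for Cacnb4, -0.32 to 0.88 for Cacng7 and -0.67 to 0.60 for Scn3b. Those of Scn2b, Cacng7 and Scn3b were the wider ones.

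**Figure D5:**
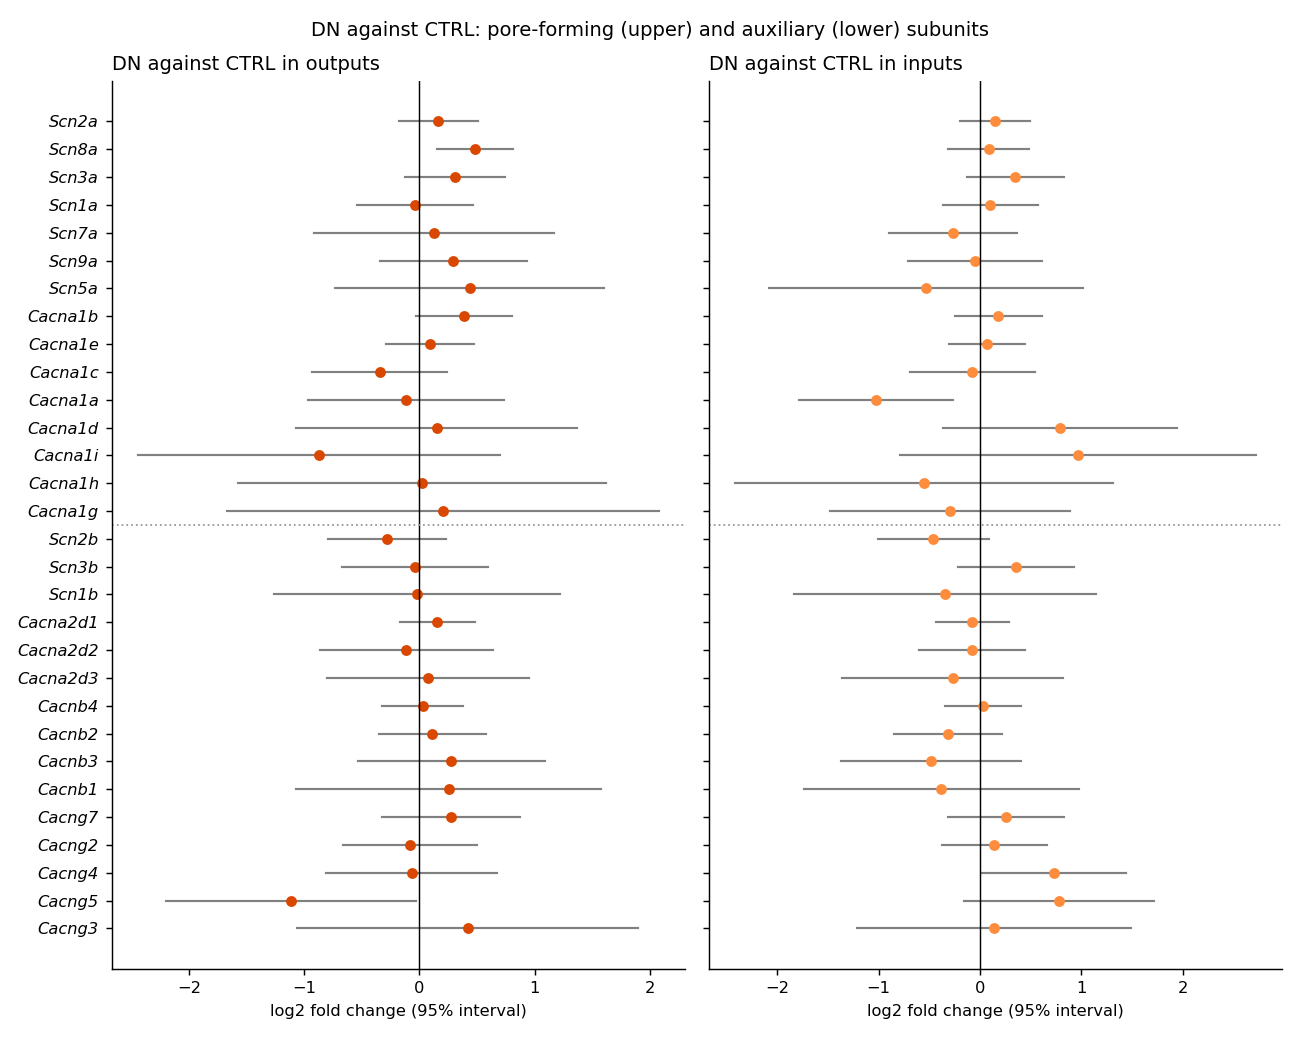
Log2 fold change of DN against CTRL in outputs (left) and inputs (right) for 30 members, pore-forming above the dotted line and auxiliary below; points are edgeR estimates from 3 against 3 libraries and lines 95% intervals. The intervals of Scn8a (0.15 to 0.82) and Cacng5 (-2.20 to -0.03) in outputs and of Cacna1a (-1.78 to -0.27) and Cacng4 (0.02 to 1.44) in inputs leave out 0, and no member passed the adjusted test.

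In inputs, the same contrast reads the whole dissected tissue. No member was called there: edgeR called 0 of 32, against 0.00756% of all genes tested. An unadjusted p under 0.05 was found for 2 members (6.25%, against 4.46% of all genes tested), Cacna1a and Cacng4. DESeq2 and limma-voom also called 0, against 0.356% and 0.0605% of all genes. The median log2 fold change over members was -0.06, against 0.03 over all genes tested. In the same inputs the sum of 7 pan-neuronal markers was 4515 to 4814 in DN and 3644 to 4293 in CTRL (6 of 7 positive, median 0.30). That of 8 VMN markers was 518 to 708 and 497 to 571 (7 of 8 positive, median 0.25). Of 8 astrocyte markers 4 were positive, with a median of 0.00. The part of these markers in the input and interaction values of members was not tested.

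Cacna1a, the pore of P/Q-type channels, had 32.7, 25.6 and 22.9 normalized CPM in CTRL inputs and 15, 11.8 and 13.2 in DN inputs. All DN inputs were below all CTRL inputs, with a log2 fold change of -1.02 ± 0.35 (SE), unadjusted p = 0.0122 and edgeR adjusted p = 0.997. Cacng4, a TARP gene, had 38.2, 32.1 and 31.0 in CTRL inputs and 33.9, 83.8 and 50.2 in DN inputs, with 0.73 ± 0.33 and adjusted p = 0.997, and its groups overlap. Cacng8 was near the lower end of what was counted, with 2.64, 0.859 and 1.47 in CTRL inputs and 0.393, 0.324 and 0.28 in DN inputs (-2.31 ± 1.17, adjusted p = 0.997). Scn2b, with 70.3, 71.0 and 52.6 against 46.7, 57.2 and 36.9, overlapped (-0.46 ± 0.25, adjusted p = 0.997). DN inputs were above CTRL inputs without overlap for 2 members, Scn2a and Cacng5 (6.25%, against 5.17% of all genes tested), and below for 3, Cacna1a, Cacng8 and Cacnb3 (9.38%, against 5.37%).

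Whether the output-input difference itself changed with DN was read from the interaction in a fit of all 12 libraries. edgeR called 0 of 34 members, against 0.0% of all genes tested, and 3 had an unadjusted p under 0.05 (8.82%, against 6.22% of all genes tested). limma-voom called 0 (0.0% of all genes) and DESeq2 called 1, Cacng5, where it called 1.01% of all genes it tested. On the genes that edgeR tested it called no member and 0.674% of genes.

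Cacng5 had the smallest p. Its inputs were 7.34, 9.06 and 12.4 normalized CPM in CTRL and 14.3, 16.4 and 18.8 in DN, and its outputs, given above, were higher in CTRL and lower in DN. The interaction was -1.89 ± 0.59 (SE, log2), with unadjusted p = 0.0056 and edgeR adjusted p = 0.691. DESeq2 gave adjusted p = 0.000867 over all genes and 0.0603 over the genes edgeR tested. Per pool the ratio was 0.80, 0.75 and -0.04 in CTRL and -0.87, -1.33 and -1.52 in DN.

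For Cacna1a the ratio was -0.83, -0.75 and -0.18 in the CTRL pools and 0.04, 0.43 and 0.36 in the DN pools, with outputs of 18.0, 14.8 and 20.1 in CTRL and 15.4, 16.2 and 17.2 in DN. Its outputs overlap between conditions while its inputs do not. The interaction was 0.91 ± 0.47, with unadjusted p = 0.0713 and edgeR adjusted p = 0.828. Cacng8, with 1.86, 1.60 and 0.985 in CTRL outputs and 1.96, 5.66 and 1.94 in DN outputs, had 3.41 ± 1.46 and adjusted p = 0.752. Cacna1s had 0 counts in the 3 DN inputs and 1, 2 and 90 counts in the DN outputs, nearly all in 1 library, so no fold is given. For Cacna2d1 and Cacnb2, called in outputs against inputs, the interaction was 0.23 ± 0.22 (adjusted p = 0.949) and 0.43 ± 0.32 (adjusted p = 0.903), so a difference between CTRL and DN is not shown for either.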

How the data were processed

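The authors deposited raw counts of reads per Ensembl gene, 1 file a library. Tools named in the submitters' processing notes are HTSeq 0.6.1, STAR 2.4.2a and cutadapt 1.3, with build GRCm38. For the annotation, the strand setting and the counting of reads that similar genes share, nothing is given in the sources used here. Per the labels' protocols all RNA was amplified (NuGEN Ovation V2). Reads without a gene (16.1 to 26.1% of the reads listed) were left out. GENCODE M21 held 46005 of 46517 identifiers (98.9%). edgeR 4.0.16 (quasi-likelihood, two-sided, TMM, filterByExpr with minimum count 10 and total 15, Benjamini-Hochberg at 0.05) was fitted to the 6 libraries of each comparison, and to all 12 for the interaction. Levels are normalized CPM with TMM over 12 libraries; lengths are merged exons. The members, lists and the rule for named genes (members called, the 2 highest per kilobase in CTRL outputs of each family, and the 4 smallest p where none was called) were chosen with earlier results of these data known. Whether pools are independent cohorts is not given, so p-values measure the spread between pools. Input and output of a number are 1 pool by the series' design; their deviations correlated at r = 0.069, 0.029 and 0.143 in CTRL and 0.011, 0.007 and 0.024 in DN. Alternatives used DESeq2 1.42.0 and limma 3.58.1 in R 4.3.3, other scalings and filters, a block, 1 fit of all 12 libraries, no mitochondrial genes, and leaving out each pool. The tools were tested on simulated data, and the counts of edgeR are given here. For outputs against inputs in CTRL, edgeR called 2 of 97 genes changed 2-fold and 23 of 94 changed 4-fold, with 3 false calls. For DN against CTRL in outputs it called 5 of 97 and 33 of 96, with 1 false call. A member that was not called may therefore still have changed. The simulation changed few genes, 97 and 94 of 13456 for the CTRL comparison, where 431 genes were called in the data. Its rates may therefore not be those of that comparison. 1 gene of the partner list is not reported here.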

Additional observations from a re-analysis of the deposited data

Results flagged for a closer look

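Cacng5 was the 1 member whose output-input difference differed between DN and CTRL by a test of the interaction. DESeq2 over all genes gave a log2 interaction of -1.89 with adjusted p = 0.000867, and edgeR gave the same estimate without a call (adjusted p = 0.691). With DESeq2 on the genes that edgeR tested, an alternative added after seeing the data, the adjusted p was 0.0603, and with a replicate block in edgeR it was 1. All 3 DN output-input ratios were negative, and 2 of the 3 CTRL ratios were positive. The gene is a low one, at 5.89 to 18.8 normalized CPM over the 12 libraries.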

How the results depend on the processing

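No member reversed among called values. In CTRL, 1 member was called in outputs against inputs, against 4 by DESeq2, 3 by DESeq2 on the filtered genes (added after seeing the data), 2 with no filter and 0 to 1 when each CTRL pool was left out. In DN, 2 were called, against 7 by DESeq2, 6 by DESeq2 on the filtered genes, 4 by limma-voom, 4 with no filter, 5 in 1 fit of all 12 libraries, 3 without the mitochondrial chromosome genes and 1 when any DN pool was left out. Between DN and CTRL outputs, and for the interaction, 0 were called, against 1 each by DESeq2; in inputs 0 were called under every alternative. The cause of these differences was not tested. With the pool as a replicate block, 1 member was called in CTRL and 2 in DN, and blocking changed no other call of a member. Whether same-numbered CTRL and DN pools share more than a number is not given. Their deviations correlated at r from -0.017 to 0.012. Input and output of 1 pool reached only 0.007 to 0.143, so these correlations cannot decide it. Of 2357 values of single members under alternatives, 2327 kept their side of the threshold, 5 lost it and 25 gained it. The main fits called only 1 member in CTRL and 2 in DN, so nearly all values that kept their side were uncalled throughout. All 5 that lost it were of Cacna2d1 in CTRL or Cacnb2 in DN. A further 100 values that were never called changed sign, in 53 of 163 results. Nuclear genes had 8.5 to 11.3 M counts an input and 26.2 to 32.1 M an output, and each group has 3 pools. The 95% interval lay inside a 2-fold change for 16 of 32 members in inputs and 19 of 32 in outputs.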
